A study of Mus musculus with 80 samples.

Results

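Among the stretches of the genome that carried the repressive histone mark H3K27me3 in wild type mouse embryonic stem cells (ESC), 8656 of 19819 carried no H3K4me3, the mark of promoters. They are called H3K27me3-only regions here, and the other 11163 bivalent regions. A region is a peak of the first wild type H3K27me3 list (replicate 1), and it counts as H3K27me3-only where it overlaps, by 1 bp or more, no H3K4me3 peak of either wild type list. The absence of wild type H3K4me3 and the presence of wild type H3K27me3 of replicate 1 therefore come from the choice and are no result. Of the bivalent regions, 10329 overlapped peaks of both H3K4me3 lists, 618 of replicate 1 alone and 216 of replicate 2 alone. H3K27me3-only regions were short, weakly scored and mostly without a Suz12 or Ring1b peak. Few had an open chromatin peak, and CTCF peaks were about as frequent at them as in windows 10 kb away, but more frequent (14.6% against 4.47% in WT) at those 20 kb or more from H3K4me3.

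H3K27me3 is written by Polycomb repressive complex PRC2, of which Suz12 is a core subunit. Complex PRC1, with the ubiquitin ligase Ring1b, can bind the mark and adds its own mark to histone H2A. In ESC both complexes gather at CpG-rich promoters of silent developmental genes, most of which also carry H3K4me3 and are called bivalent. PRC2 can also spread H3K27me3 away from these sites, over surrounding chromatin, where its own stable binding is low. CTCF is a zinc finger protein that binds DNA at loop anchors and insulators, and H3K36me3 marks the bodies of transcribed genes and hinders PRC2.

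The study examined loss of Mll2 (Kmt2b), a methyltransferase that places H3K4me3 at bivalent promoters, by ChIP-seq, ATAC-seq, sequential ChIP (re-ChIP) and other assays. The conditional ESC line came from C57Bl/6 blastocysts, carries floxed Mll2 and a tamoxifen-inducible Cre in both arms, and was kept in serum and LIF without feeder cells. Wild type (WT) cells received carrier. The knockout (KO) was induced with 4-hydroxytamoxifen over 96 h, so that deletion and drug cannot be told apart. V6.5 ESC with WT or catalytic-dead (CD) Mll2 were grown on irradiated fibroblasts that were taken out by pre-plating. The re-ChIP labels name C57Bl/6 ESC and give no Mll2 status. H3K27me3, H3K4me3, Suz12 and Ring1b had 1 WT and 1 KO library in each of 2 replicates, ATAC-seq had 3 and 3, and every other target had 1 library per genotype. The H3K4me3 antibody differed between replicates. Fly chromatin was added in replicate 2 for H3K27me3, H3K4me3 and Suz12, and human chromatin in both replicates for Ring1b.

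Peaks were read from 40 deposited lists, of which 37 had no part in the choice of regions. A share is the percentage of regions overlapping a peak by 1 bp or more, with an exact (Clopper-Pearson) 95% interval that covers counting error only. A list's length sets how many regions it can reach, and read depth is not given in the lists. The H3K27me3 lists of replicate 2 held 8080 (WT) and 8263 (KO) peaks, against 19819 and 31018 in replicate 1. In the 4 stem cell RNA libraries all 10 pluripotency markers exceeded 1 FPKM. The 8 fibroblast markers summed to 26.3 and 29.4 FPKM in WT and to 54.4 and 56.0 FPKM in KO, most of it Vim (21.4 and 23.1 in WT, 47.7 and 46.1 in KO). Of these markers 3 exceeded 1 FPKM in every library, Postn was at 0 in all, and the collagen genes Col1a1, Col1a2 and Col3a1 stayed under 1. The pluripotency markers summed to 11730 and 8097 FPKM in WT and to 7608 and 7266 FPKM in KO, and the 6 primitive endoderm markers to 1.73 to 2.34 FPKM. The part of other cells in the results was not tested.

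H3K27me3-only regions had a median width of 963 bp (361 to 11565 bp) and together covered 9.89 Mb. Bivalent regions had a median width of 1870 bp and covered 29.2 Mb. The peak score that the authors' lists give had a median of 79.42 at H3K27me3-only and 212.08 at bivalent regions, and 50 was the lowest score listed. Only 24.0% of H3K27me3-only regions, 2077 in all, reached the list's median score of 118.7, against 70.2% of bivalent regions. The H3K27me3-only set was thus drawn mostly from the weaker end of the list.

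Most H3K27me3-only regions lay near H3K4me3. The median distance to the nearest WT H3K4me3 peak was 3016.5 bp, with 24.2% under 1 kb, 62.3% under 5 kb and 86.3% under 20 kb, and 285 regions lay 100 kb or more away. The nearest bivalent region was a median of 6227 bp away, and it was within 1 kb for 2137 regions. Neighbours less than 5 kb apart formed 6251 runs, of which 4689 were a single region and 496 held 3 or more. The longest run held 11 regions on chromosome 11 (mm9, 77750433 to 77780169). Many of these regions thus had another peak of the same list close by. Joining peaks up to 1 kb apart before the choice left 5320 regions.

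The edge of the rule divided similar regions. The 561 H3K27me3-only regions under 200 bp from an H3K4me3 peak had a Ring1b peak (WT replicate 1) in 20.7% and a Suz12 peak (WT replicate 2) in 6.95%. The 674 bivalent regions with under 200 bp of H3K4me3 overlap had them in 29.1% and 12.2%. Both sets lay closer to each other than either did to the whole bivalent class.

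H3K27me3 itself recurred in part in the 5 lists that did not choose the regions. KO replicate 1 had a peak at 80.4% of H3K27me3-only regions (interval 79.5 to 81.2%), and WT cells of the V6.5 line at 59.2% (58.2 to 60.3%). The CD line had one at 53.5% (52.5 to 54.6%). In replicate 2 the shares were 11.8% in WT (11.1 to 12.5%) and 9.31% in KO (8.71 to 9.94%). The longest list reached the most regions and the 2 short lists of replicate 2 the fewest, although within replicate 2 the slightly shorter WT list reached more. Since WT replicate 1 chose the regions, its 100% is no baseline for the 80.4% in KO replicate 1.

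By region, 1077 (12.4%) had H3K27me3 in none of the 5 lists, 2808 (32.4%) in 3 and 274 (3.17%) in all 5. The 1077 unsupported regions had a median score of 58.55 and a median width of 746 bp, and the 274 fully supported ones had medians of 204.56 and 1848.5 bp. Support thus went with score and width. Where KO replicate 1 did have a peak over these regions, the median score by region was 373.61. That list's own median, over peaks, was 151.83. In V6.5 WT cells the 2 values were 247.30 and 131.17. Each score belongs to the whole overlapping peak, which can reach beyond the region and be counted at several regions. These medians therefore do not measure H3K27me3 within the regions alone. In replicate 2 the peaks over these regions scored below their list medians, at 77.31 against 95.71 in WT and 76.31 against 99.69 in KO. Peaks over bivalent regions had higher medians, at 1191.62 in KO replicate 1 and 598.18 in V6.5 WT. In replicate 2 they were 119.4 in WT and 128.98 in KO.

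The choosing list had no part in either of the genotype comparisons that follow. In replicate 2, KO minus WT was -2.48 percentage points. Of the H3K27me3-only regions 670 (7.74%) had a peak in WT only and 455 (5.26%) in KO only, where 7.88% and 11.2% of all 19819 regions did so. Of the regions with a WT peak there, 34.4% also had one in KO, against 79.9% of bivalent regions. In V6.5 cells CD minus WT was -5.67 points. A peak in WT only was found at 1343 regions (15.5%) and in CD only at 852 (9.84%), against 14.6% and 7.25% of all regions. Here 73.8% of WT peaks recurred in CD cells, and 83.6% at bivalent regions. Each of these comparisons has 1 library per genotype, so no test was possible, and the WT-only shares were close to the background.

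**Figure D1:**
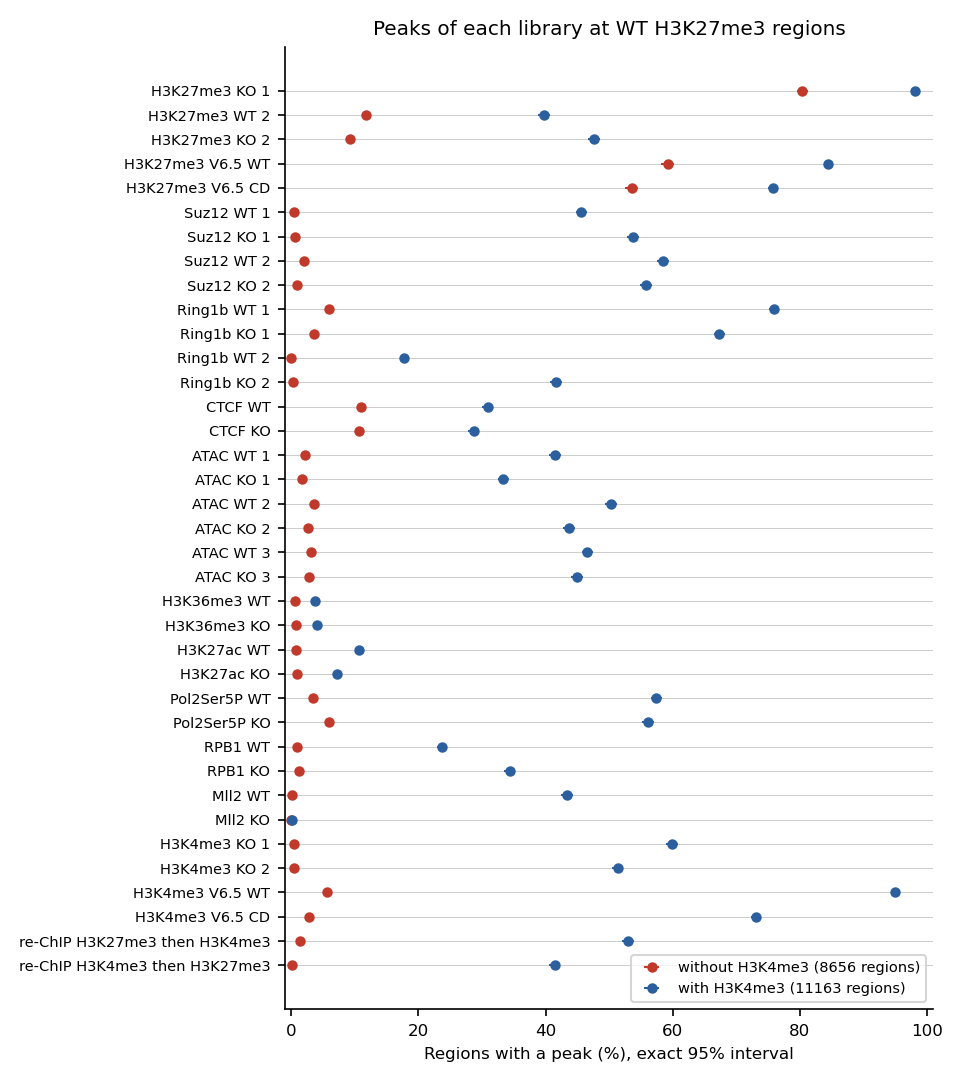
Share of regions with a peak (%, x axis) in each of the 37 libraries that did not choose the regions (y axis), for H3K27me3-only (red) and bivalent regions (blue); bars are exact 95% intervals from counting alone and the digit after a genotype is the replicate. H3K27me3-only regions reach 80.4% for H3K27me3 in KO replicate 1 and stay below 11% for Suz12, Ring1b, CTCF and ATAC-seq.

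Suz12 peaks were rare at H3K27me3-only regions. Replicate 1 had one at 0.451% of regions in WT (39 regions, 0.321 to 0.615%) and at 0.566% in KO (49 regions). Replicate 2 had one at 2.06% in WT (178 regions, 1.77 to 2.38%) and at 0.890% in KO (77 regions). At bivalent regions the same 4 lists gave 45.7%, 53.8%, 58.5% and 55.8%. Over all 4 lists 222 H3K27me3-only regions (2.56%) had a Suz12 peak in at least 1, and 17 in every one. The 222 were wider and stronger than the set as a whole, with a median width of 1603 bp and a median score of 169.54, and lay a median of 1438 bp from H3K4me3.

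Suz12 did not move in 1 direction with the genotype. KO minus WT was 0.12 points in replicate 1 and -1.17 points in replicate 2. In replicate 1, 20 H3K27me3-only regions (0.231%) had a peak in WT only and 30 (0.347%) in KO only, where 2.02% and 6.66% of all regions did. In replicate 2 the counts were 130 (1.5%) and 29 (0.335%), against 5.77% and 3.74% of all regions. WT peaks recurred in the KO list of the same replicate less often than at bivalent regions. They did so at 48.7% of 39 regions in replicate 1 and 27% of 178 in replicate 2, against 92.5% and 84.5% at bivalent regions.

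Ring1b was found more often than Suz12 in replicate 1. Its lists there were longer, at 10118 (WT) and 8841 (KO) peaks against 4691 and 5707. Ring1b peaks met 5.86% of H3K27me3-only regions in WT (507 regions, 5.37 to 6.37%) and 3.54% in KO (306 regions). In replicate 2 the WT list held 2242 peaks and met 1 region (0.0116%), and the KO list held 4640 and met 26 (0.300%). There Suz12, with 6349 (WT) and 6163 (KO) peaks, was the more frequent. Bivalent regions gave 76.0% and 67.3% in replicate 1 and 17.8% and 41.6% in replicate 2. In total 600 H3K27me3-only regions (6.93%) had Ring1b in at least 1 list and none had it in all 4. Of these, 442 had no Suz12 peak in any list and 158 had one.

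The genotype difference for Ring1b also changed direction between replicates. It was -2.32 points in replicate 1, with 294 regions (3.40%) in WT only and 93 (1.07%) in KO only, where 8.25% and 2.35% of all regions were. In replicate 2 it was 0.29 points, with 1 region in WT only and 26 in KO only, against 0.146% and 13.7% of all regions. A combined reading left 7992 regions (92.3%) with neither Suz12 nor Ring1b in any of the 8 lists. These include 181 of the 274 regions that had H3K27me3 in all 5 other lists.

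CTCF was the most frequent of the chromatin proteins measured. Its WT list of 49208 peaks met 944 H3K27me3-only regions (10.9%, 10.3 to 11.6%) and its KO list of 50764 peaks met 927 (10.7%, 10.1 to 11.4%). Bivalent regions gave 30.9% and 28.7%. The same regions were found in both genotypes for the most part: 867 had CTCF in both, 77 (0.890%) in WT only and 60 (0.693%) in KO only, where 2.46% and 1.12% of all regions were in WT only and KO only. CTCF thus recurred in KO at 91.8% of its WT sites here, with KO minus WT at -0.20 points. The CTCF peaks that met these regions had a median score of 467.63 in WT, and those at bivalent regions 440.61. These are again scores of whole peaks, taken by region. The list median, over peaks, was 278.23.

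Open chromatin, measured by ATAC-seq, was scarce and was the one signal with 3 libraries per genotype. The WT libraries had a peak at 2.18, 3.54 and 3.06% of H3K27me3-only regions and the KO libraries at 1.68, 2.68 and 2.84%. Their lists held 31383, 41237 and 37641 peaks in WT and 26601, 35086 and 36736 peaks in KO. In both classes of region the share rose with list length over all 6 libraries. Each KO list was shorter than the same-numbered WT list. The genotype differences below therefore do not by themselves show less open chromatin in KO. The WT and KO shares overlapped. Their means were 2.93% ± 0.686 (SD, n = 3) in WT and 2.40% ± 0.632 (SD, n = 3) in KO, a difference of -0.53 points (exact 2-sided permutation test, p = 0.4, where 0.1 is the smallest p that 3 against 3 allows). At bivalent regions the difference was -5.51 points (p = 0.4, same exact test). The difference between the classes of region in this genotype effect was 4.98 points (p = 0.4, same exact test). Of the 944 regions with a WT CTCF peak 21.4% had ATAC signal in at least 1 of the 6 lists, against 4.12% of the 7712 without. In all 520 regions had an ATAC peak in at least 1 list and 64 in all 6, and those 64 lay a median of 29943.5 bp from H3K4me3.

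Marks of transcription were rare. H3K36me3 peaks, which cover 177 Mb in WT, met 0.612% of H3K27me3-only regions in WT (53 regions, 0.459 to 0.800%) and 0.751% in KO (65 regions). H3K27ac, which marks promoters and enhancers in use, met 0.682% in WT and 0.855% in KO. RPB1, the largest subunit of RNA polymerase II, met 0.843% in WT and 1.28% in KO. Bivalent regions had H3K36me3 at 3.77% in WT and 4.06% in KO, H3K27ac at 10.7 and 7.26%, and RPB1 at 23.7 and 34.4%. H3K36me3 was thus infrequent in both classes. Only 170 H3K27me3-only regions (1.96%) had WT RPB1, H3K27ac or H3K36me3. The serine 5 phosphorylated form of RNA polymerase II, typical of initiating and paused polymerase, was more frequent at H3K27me3-only regions. Its shares there were 3.36% in WT and 5.89% in KO, and the KO list was longer (42660 against 30067 peaks). At bivalent regions its shares were 57.4% and 56.1%.

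Among libraries that the choice did not use, Mll2 and KO H3K4me3 were also rare, and H3K4me3 of V6.5 cells was less so. Mll2 had a peak at 5 H3K27me3-only regions in WT and at 1 in KO, against 43.4% of bivalent regions in WT. H3K4me3 of KO cells met 0.439% (replicate 1) and 0.393% (replicate 2), 53 regions in all. V6.5 cells had H3K4me3 at 5.58% of the regions in WT and 2.75% in CD. Re-ChIP windows, which need both marks on the same fragment, met 0.162% with H3K4me3 pulled down first and 1.33% with H3K27me3 first, against 41.4% and 52.9% of bivalent regions. In all, 7985 H3K27me3-only regions (92.2%) had neither H3K4me3 in any list nor a re-ChIP window.

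H3K27me3-only regions had a lower share than bivalent regions in 19 of 19 libraries. For ATAC-seq the mean share was 2.66% against 43.4%, a difference of -40.7 points (SD 5.13 over 6 libraries, range -46.8 to -31.6). The exact 2-sided sign-flip test over libraries gave p = 0.031, the smallest it can give, and 0.13 after Benjamini-Hochberg adjustment over 4 tests. For H3K27me3 the difference was -26.3 points over 5 libraries (exact p = 0.063, adjusted 0.13). For Suz12 it was -52.5 and for Ring1b -48.3 points, over 4 libraries each (exact p = 0.13, adjusted 0.13). None could pass 0.05 after adjustment with so few libraries, and libraries of both genotypes were pooled. The Ring1b difference rests on replicate 1 for its size, at -67.0 points without replicate 2 and -29.6 without replicate 1.

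Part of these gaps went with the width and score of the regions. Within 10 bins of region width the differences were -30.2 points for ATAC-seq, -8.76 for H3K27me3, -29.0 for Suz12 and -30.7 for Ring1b. Within 10 bins of WT H3K27me3 score they were -29.7, -7.64, -26.5 and -29.5 points. Requiring a peak to cover at least 0.5 of the region gave -3.53 points for ATAC-seq, whose peaks are short. The sign was the same under each of these.

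**Figure D2:**
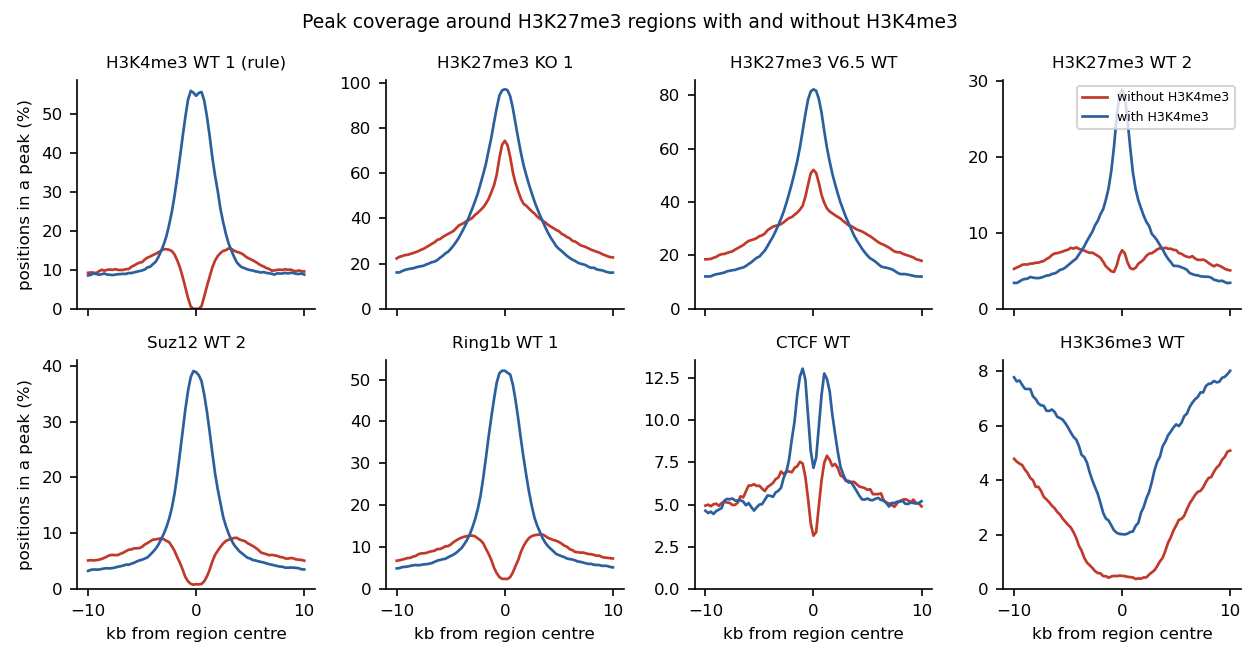
Percentage of positions lying in a peak (y axis, its own scale in each panel) by distance from the region centre (x axis, kb), for H3K27me3-only (red) and bivalent regions (blue), in 8 lists. At H3K27me3-only regions Suz12, Ring1b and CTCF are lower at the centre than a few kb away and H3K36me3 has a broad trough, while H3K27me3 of KO replicate 1 and V6.5 WT is highest at the centre. The rule keeps WT H3K4me3 from these regions but not from their surroundings.

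Coverage around the region centres showed what lay beside them. KO replicate 1 H3K27me3 covered 74.3% of H3K27me3-only centres and 22.3 and 22.7% of positions 10 kb to either side. WT replicate 2 H3K27me3 hardly stood out, with 7.72% of the centres and a highest value of 8.09% at 4250 bp. Suz12 (WT replicate 2) covered 0.878% of the centres and reached its highest value, 9.18%, 3750 bp away. Ring1b (WT replicate 1) covered 2.44% of the centres and 13.0% of positions 3250 bp away. Both were thus higher a few kb out than at the regions. The rule keeps WT H3K4me3 from the regions but not from their surroundings, where it reached 15.5% (replicate 1) at 3000 bp. How far the choice shapes the 2 dips was not tested. At regions 20 kb or more from H3K4me3, described below, these 2 lists met the regions more often than windows beside them. CTCF covered 3.17% of the centres, at most 7.90% (1250 bp away), and 4.94 and 4.90% of positions 10 kb to either side. A dip was also present at bivalent centres, at 7.18% against 13.1% 1000 bp away. The bivalent centres stayed above the 4.64 and 5.20% found 10 kb to either side of them, unlike the H3K27me3-only centres. H3K36me3 covered 0.485% of the centres and 4.78 to 5.08% of positions 10 kb away.

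H3K27me3 peaks of the other lists, Ring1b of replicate 1 and Suz12 of replicate 2 were found more often at regions with a higher score. From the lowest quintile of scores (50 to 56.62) to the highest (131.49 to 1544.71), KO replicate 1 H3K27me3 went from 62.9 to 96.6% and WT replicate 2 from 3.63 to 30.6%. Ring1b (WT replicate 1) went from 1.79 to 16.5% and Suz12 (WT replicate 2) from 0.288 to 6.59%. In KO, Ring1b of replicate 1 went from 0.980 to 9.65% and Suz12 of replicate 2 from 0.115 to 2.83%. In the remaining Suz12 and Ring1b lists the lower quintiles had no such order or held almost no peaks. Suz12 of KO replicate 1, for example, was at 0.173, 0.289, 0.116, 0.116 and 2.14%. CTCF went from 7.72 to 15.1%. H3K36me3 had no such order, at 0.807% in the lowest and 0.404% in the highest quintile. The median width went from 683 to 1790 bp over the same quintiles, so a 1 bp overlap is also easier to reach in the upper ones.

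Distance from H3K4me3 ordered the signals differently. From under 1 kb to 100 kb or more, KO replicate 1 H3K27me3 went from 89.3 to 60.0%, through 81.0, 78.1 and 69.0%. Ring1b (WT replicate 1) was 11.6% under 1 kb, 3.57% at 1 to 5 kb, 4.2% at 5 to 20 kb, 5.66% at 20 to 100 kb and 2.81% at 100 kb or more. H3K4me3 of V6.5 WT cells was 14.4% under 1 kb and 2.60 to 3.11% in the other bins. ATAC-seq went the other way, at 1.1% under 1 kb and 11.6% at 100 kb or more in WT replicate 1, and at 0.859 and 7.37% in KO replicate 1. CTCF was highest at 20 to 100 kb, at 15.3%, and lowest at 1 to 5 kb, at 9.27%. The last bin held 285 regions.

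**Figure D3:**
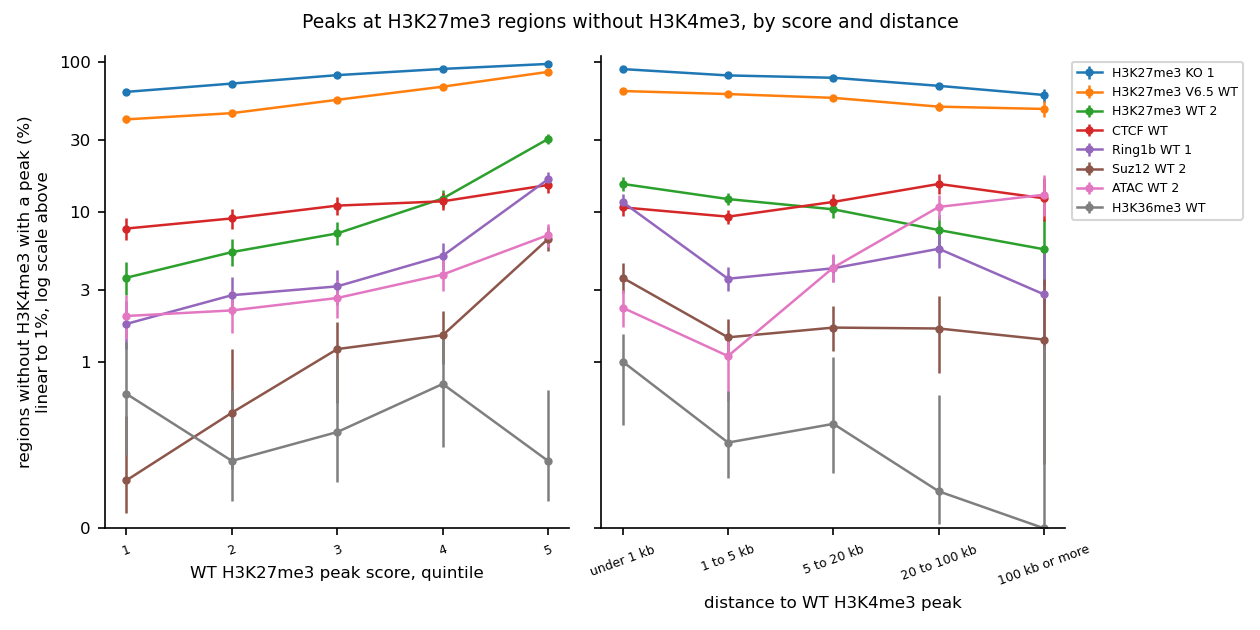
Share of H3K27me3-only regions with a peak (y axis, %, linear to 1% and logarithmic above) by quintile of the WT H3K27me3 score (left) and by distance to the nearest WT H3K4me3 peak (right), for 8 lists; bars are exact 95% intervals. Most lines go up with score, while with distance the H3K27me3 lines go down and the ATAC-seq line goes up to 13.0% in WT replicate 2.

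Windows of equal width, moved 10 kb to either side, gave a local comparison. Over all regions CTCF (WT) met 10.9% of H3K27me3-only regions and 9.80 and 9.81% of the moved windows. Suz12 (WT replicate 1) met 0.451% and 5.27 and 5.55%, Ring1b (WT replicate 1) 5.86% and 9.12 and 9.58%, and H3K36me3 (WT) 0.612% and 5.80 and 6.16%. H3K27me3 of replicate 2 met 11.8% against 8.39 and 8.01% in WT and 9.31% against 7.95% on either side in KO, where KO replicate 1 met 80.4% against 28.9 and 29.4%. Many of these moved windows lie at H3K4me3 peaks, 14.3 and 15.0% of them in replicate 1, which the regions cannot. The 1186 regions 20 kb or more from H3K4me3 avoid this.

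At those 1186 distant regions CTCF, ATAC-seq, Ring1b of replicate 1 and Suz12 were more frequent than in the moved windows. CTCF met 14.6% (WT) and 14.8% (KO) of them and 4.30 to 4.47% of the moved windows. ATAC-seq met 5.14 to 11.3% of the regions over the 6 libraries and 0.843 to 3.29% of the windows. Ring1b (WT replicate 1) met 4.97% against 0.337 and 0.675%, Suz12 (WT replicate 2) 1.60% against 0.0843% on either side, and serine 5 phosphorylated polymerase (WT) 6.32% against 0.675 and 1.43%. The other Suz12 lists met only 0.169% (WT replicate 1), 0.253% (KO replicate 1) and 0.337% (KO replicate 2), a few regions each. KO replicate 1 H3K27me3 met 66.9% against 9.44 and 10.8%. H3K36me3 went the other way, at 0.169% of the regions and 1.18 to 1.26% of the windows in WT. So did H3K27ac, at 0.253% against 0.675 and 1.10% in WT and 0.169% against 0.590 and 0.843% in KO. RPB1 of KO cells was also lower, at 0.253% against 0.506 and 1.01%, while in WT its 0.506% lay between 0.253 and 0.843%. The H3K36me3, H3K27ac and RPB1 shares of these distant regions rest on a few regions each. All values at the distant regions are a description and were not tested.

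The X chromosome held the highest proportion of H3K27me3-only regions. There 370 of 729 regions (50.8%) were H3K27me3-only, against 43.4% of autosomal regions (39.9 to 47.9% over 19 autosomes). V6.5 WT cells had H3K27me3 at 19.5% of the X-linked H3K27me3-only regions (15.5 to 23.9%) and at 61.0% of the autosomal ones (59.9 to 62.0%). V6.5 CD cells gave 21.4 and 55.0%. In both V6.5 libraries the X lay below the autosomes by more than counting error. In the conditional line the gap was smaller or absent, at 68.6 against 80.9% in KO replicate 1, 15.1 against 11.6% in WT replicate 2 and 9.73 against 9.29% in KO replicate 2.

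Bivalent regions on the X had a V6.5 H3K27me3 peak less often too, at 63.8% in WT and 51.0% in CD, against 85.2 and 76.6% on autosomes. CTCF (WT) met 3.51% of X-linked H3K27me3-only regions (13 of 370, 1.88 to 5.93%) and 11.2% of autosomal ones. Ring1b (WT replicate 1) did not show such a gap, at 7.03 and 5.80%. CTCF was lower on the X at bivalent regions too, at 25.3 against 31.1% in WT and 21.2 against 28.9% in KO. Only 356 of the 20776 V6.5 WT peaks lay on the X. Over the 5 H3K27me3 libraries X minus autosomes averaged -16.7 points and was negative in 3 of 5 (exact 2-sided sign-flip test, p = 0.25, adjusted 0.25 over 2 such tests). ATAC-seq was higher on the X in 6 of 6 libraries, by 1.69 points on average (same exact test, p = 0.031, adjusted 0.063). Both tests were added after the values were seen. Bivalent regions also had ATAC-seq peaks more often on the X in every library. In replicate 1 the shares were 53.8 against 41.1% in WT and 41.2 against 33.1% in KO. The higher ATAC-seq share on the X was thus not particular to H3K27me3-only regions.

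**Figure D4:**
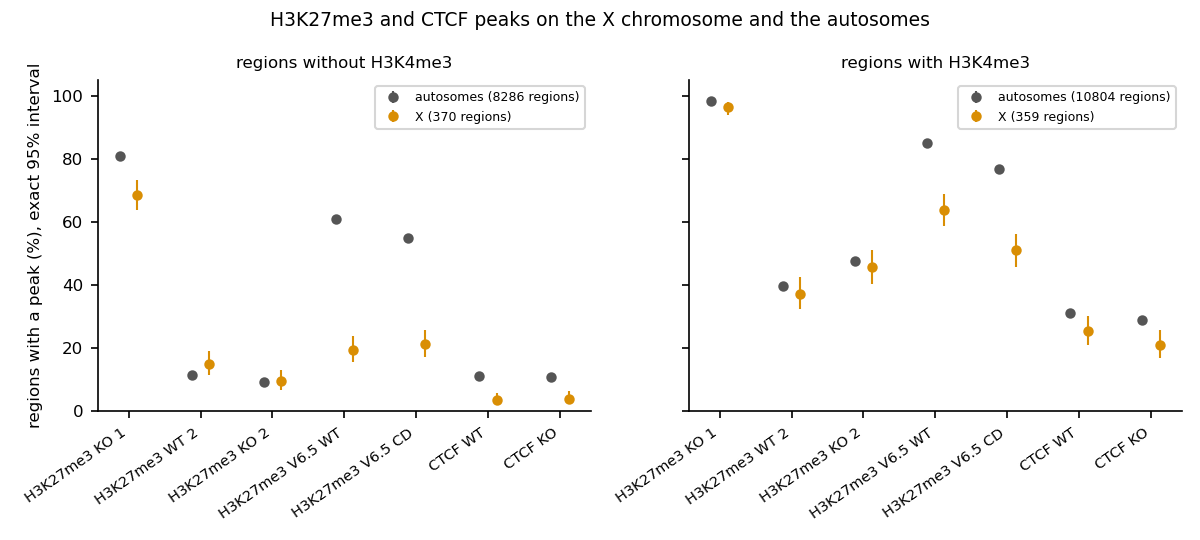
Share of regions with an H3K27me3 or CTCF peak (y axis, %) on the X chromosome (orange) and on autosomes (grey), for H3K27me3-only regions (left) and bivalent regions (right); points are single libraries and bars exact 95% intervals. The V6.5 libraries show the widest gap, 19.5% on the X against 61.0% on autosomes for WT at H3K27me3-only regions.

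Single regions show the range of the set, and are given in mm9 coordinates with no gene assigned. The widest, on chromosome 5 from 33801261 to 33812825 (11565 bp, score 1074.1), lay 14686 bp from H3K4me3. It had H3K27me3 in all 5 other lists, no Suz12, Ring1b, CTCF or ATAC peak in any list, and a re-ChIP window with H3K27me3 pulled down first. The fifth widest, on chromosome 4 from 122864077 to 122871978, was alike, with all 5 H3K27me3 lists and no Suz12 or Ring1b. Of the other three, that on chromosome 6 from 126964427 to 126974005 had 1 Suz12 and 1 Ring1b list. That on chromosome 1 from 19207586 to 19216510 had 1 and 2. That on chromosome 3 from 137210764 to 137219650 had no Suz12, 1 Ring1b list and ATAC peaks in all 6 libraries. Broad H3K27me3 was thus found with and without Polycomb subunit peaks.

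The highest score, 1544.71, belonged to a region on chromosome 10 from 77850119 to 77856046, 13836 bp from H3K4me3. It had Suz12 in both KO lists and in neither WT list, Ring1b in both libraries of replicate 1, and CTCF in both genotypes. The next were 2 regions on chromosome 15, from 102192378 to 102199701 and from 93340264 to 93347287, and 1 on the X from 45425455 to 45432374. These had H3K27me3 in all 5 lists and Suz12 in 1, 0 and 0 lists. The fifth, on chromosome 13 from 51935208 to 51940190, lay 237 bp from H3K4me3 and had Suz12 in all 4 lists. A high H3K27me3 score was thus seen both beside H3K4me3 and far from it.

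Of the 39 regions with WT Suz12 in replicate 1, 7 shared the highest Suz12 score, 3100, and 5 of them were taken in the order of chromosome names. That on chromosome 1 from 42748194 to 42749863 had a bivalent region 1 bp away and Suz12 in all 4 lists. Those on chromosome 12 from 68319460 to 68320543, chromosome 13 from 72102077 to 72107394 and chromosome 14 from 49294889 to 49296175 lay 703, 17 and 217 bp from H3K4me3. The fifth, on chromosome 18 from 64506162 to 64508191, lay 5 bp from H3K4me3. All 5 thus lay within 703 bp of an H3K4me3 peak. The Suz12 score is that of the whole peak, which need overlap the region by only 1 bp. Where in these peaks Suz12 was strongest was not examined. No region had every H3K27me3, Suz12 and Ring1b list. A looser rule, chosen after the values were seen, took H3K27me3 in all 5 and Suz12 in all 4 lists and found 10 regions. Among them the region on chromosome 8 from 12466256 to 12469671 was 7423 bp from H3K4me3, and the other 4 of the 5 with the highest H3K27me3 scores, such as chromosome 2 from 73103508 to 73107617, were within 1289 bp.

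**Figure D5:**
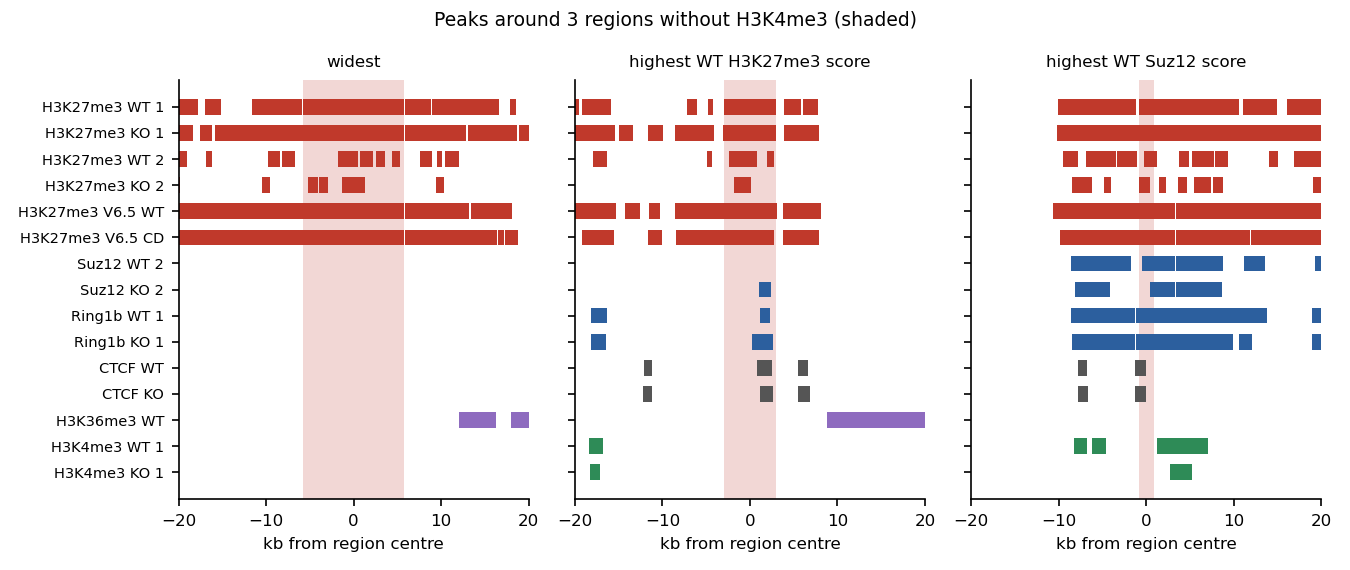
Peaks of 15 lists (rows) within 20 kb of the centre (x axis, kb) of the widest region, the region with the highest WT H3K27me3 score and the first region with the highest WT Suz12 score; the shaded band is the region and colours mark H3K27me3 (red), Suz12 and Ring1b (blue), CTCF (grey), H3K36me3 (purple) and H3K4me3 (green). The first holds no Suz12 or Ring1b peak, and the third is a 1670 bp piece between neighbouring H3K27me3 peaks.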

How the data were processed

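The authors deposited peak lists per library (chromosome, start, end, name and a score) in mm9 coordinates, per the labels. The score column of the lists that were deposited is at least 50, the peaks are named as MACS peaks in the deposited lists, and Bowtie is listed in the submitters' processing notes. No source used here gives the MACS version or its control. The re-ChIP lists that were deposited hold windows of about the same short width with a score of their own. The authors also deposited FPKM values of stem cell RNA, used here for the marker check only. Each library was called separately, so a missing peak can be a peak just under the threshold.

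Regions were merged from the WT H3K27me3 list of replicate 1, leaving out 1 mitochondrial peak, and no peaks overlapped. Overlaps, exact permutation and sign-flip tests and intervals were computed with Python 3.11.15, numpy 2.4.6, pandas 2.3.3 and scipy 1.17.1, and the code was tested on simulated regions with known overlaps. Named regions were the 5 widest, the 5 with the highest WT H3K27me3 score, the 5 with the highest WT Suz12 score of replicate 1, and up to 5 with every H3K27me3, Suz12 and Ring1b list. The regions, lists and tests were chosen with earlier results of these data known. Whether replicates are separate cultures is not labelled, and p-values cover only the spread among the libraries, which may be technical. No genome or annotation in mm9 was used here, so no gene or sequence is given for a region, and RNA and PRO-seq were not compared at these regions. Alternatives covered the overlap rule, list length, region choice, width, score and each replicate.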

Additional observations from a re-analysis of the deposited data

Results flagged for a closer look

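The 5 results that follow had opposite directions in groups set side by side, and in each case the difference was not tested. The Suz12 share of H3K27me3-only regions was 0.12 points higher in KO than in WT in replicate 1 and differed by -1.17 points in replicate 2, so the effects differed by -1.28 points. The Ring1b share differed by -2.32 points in replicate 1 and by 0.29 points in replicate 2, so the effects differed by 2.61 points. For H3K27me3 in replicate 2, KO minus WT was -2.48 points at H3K27me3-only and 7.78 points at bivalent regions, an effect -10.3 points apart. For H3K27ac the same effects were 0.17 and -3.44 points, 3.61 points apart. For serine 5 phosphorylated polymerase they were 2.53 and -1.31 points, 3.84 points apart. Each effect comes from 1 library per genotype.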

How the results depend on the processing

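The differences between H3K27me3-only and bivalent regions kept their sign in every setting run, 18 for ATAC-seq (-42.6 to -3.53 points), 16 for H3K27me3 (-32.5 to -7.64), 14 for Suz12 (-55.7 to -25.6) and 14 for Ring1b (-67.0 to -26.7), and none of their adjusted p-values passed 0.05. The number of regions was 2077 at or above the median score, 5320 with peaks up to 1 kb apart merged and 1021 with H3K27me3 also in WT replicate 2. KO minus WT for H3K27me3 in replicate 2 was -1.65 points with at least 0.5 of the region covered, -1.35 with peaks at or above each list's median score, -4.81 at the regions above the median score and -1.50 after merging. CD minus WT in V6.5 was -2.23 with those stricter lists, -4.22 at regions at least 1 kb from H3K4me3, -7.08 above the median score, -4.25 after merging, -6.76 with H3K4me3 of replicate 2 alone in the rule and -7.35 at regions with H3K27me3 in WT replicate 2. That last set gave 0.69 points for H3K36me3 and 0.33 points for ATAC-seq, which changed sign (main value -0.53, exact p = 0.5). The mean Suz12 effect was -1.47 points above the median score. Of the single shares, 81 values moved by more than the counting interval and 59 did not. KO replicate 1 H3K27me3 ranged from 61.4 to 96.1%, KO replicate 2 from 2.58 to 34.4%, WT CTCF from 3.15 to 16.9% and WT H3K36me3 from 0.277 to 0.714%. The rare Polycomb peaks moved many-fold: WT Suz12 from 0.0809 to 2.25% (replicate 1) and 0.716 to 7.15% (replicate 2), and WT Ring1b of replicate 1 from 2.22 to 15.2%. The cause of these shifts was not tested.

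With the replicate block, the ATAC-seq difference stayed at -0.53 points (exact sign-flip test over 3 pairs, p = 0.25, the smallest it allows) and the Suz12 and Ring1b effects at -0.53 and -1.02 points. Same-numbered ATAC-seq libraries deviated together with correlations of 0.0014 to 0.069 over regions, and differently numbered ones with -0.056 to 0.044. Correlations this weak cannot settle whether the numbers pair the samples. Leaving out each ATAC-seq library in turn gave differences of -0.90 to -0.17 points (exact permutation test, p = 0.2 to 0.7). Leaving out 1 replicate gave -1.17 to 0.12 points for Suz12 and -2.32 to 0.29 points for Ring1b, so both changed sign. Autosomes alone and leaving out each H3K27me3 list were added after seeing the data. RNA and PRO-seq at the regions were not run, for want of an mm9 annotation.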
